A study of Drosophila melanogaster with 3 samples.

Results

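The circadian clock genes of the fly were followed here through a ChIP-seq experiment on Dad in embryos. They were taken as a list of 8 genes with Ensembl coordinates (period, per; timeless, tim; Clock, Clk; cycle, cyc; vrille, vri; PAR-domain protein 1, Pdp1; clockwork orange, cwo; cryptochrome, cry) out of 13945 protein-coding genes on the 6 arms, and a region was counted for a gene when its summit lay inside the gene or within 5 kb of either end. The chromatin came from Drosophila melanogaster embryos aged 0 to 24 h, both sexes mixed, of a Dad-GFP strain, a stable transgenic line in which GFP is joined to the C terminus of Dad (Daughters against dpp), the inhibitory Smad of the Dpp pathway. Antibody against GFP was used for the precipitation, chromatin was sonicated to 200 to 800 bp, and 3 biological replicates form the only group, so the design holds no contrast between conditions. The sources used here do not state what drives the transgene, and the control library is not analysed here. Read depth is unknown, since the files list regions with a signal value and no read counts. Coordinates are those of build dm6.

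In clock neurons, the proteins CLK and CYC, a pair of basic helix-loop-helix PAS factors, bind E-box sequences and switch on per, tim, vri, Pdp1 and cwo. PER and TIM return to the nucleus and shut CLK and CYC down, VRI represses and PDP1 activates the Clk gene, CWO competes at E-boxes, and CRY is a blue-light receptor that leads to the loss of TIM. Several of these genes also have uses outside the clock: vri was found as an enhancer of dpp mutant phenotypes in the embryo, and Pdp1 regulates genes of muscle.

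Of the 8 clock genes, 4 had a peak of the authors' optimal list, and each of these 4 genes had 1 peak. That list holds the 3392 peaks past the authors' threshold of reproducibility, the irreproducible discovery rate. Across all protein-coding genes the share with such a peak was 43.4%, so 4 of 8 is near the background. The peaks lay in introns of Pdp1, cwo and vri and in the upstream flank of cyc. No clock gene had an optimal peak within 500 bp of any of its transcription start sites (TSSs), against 18.4% of all protein-coding genes. All 8 had a region of the longer pooled list, against 87% of protein-coding genes, and 7 of 8 had one within 500 bp of a TSS, against 55.8%. The exception, Clk, had no region inside the gene in the pooled list or in the lists of replicates 1, 2 and 3 (30000 regions each). The clock genes are long (median 12433 bp, against 2166 bp for all protein-coding genes). The pooled shares were not split by gene length.

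The sequence around the 4 summits is shown because it carries the positions on which the rest of the description turns. Each line gives up to 100 bp on either side of the summit, 5′ to 3′ on the strand of the clock gene, from the RefSeq sequence of the build, and capitals mark any match to GAGAG (bound by GAGA factor) or ATCGATA (core of the DNA replication-related element, DRE). The windows are chr3L:7850954-7851154 on the minus strand for Pdp1, chr3L:19818003-19818173 on the minus strand for the cyc flank, chr3R:10393710-10393910 on the plus strand for cwo, and chr2L:5293276-5293476 on the plus strand for vri. The cyc window is shorter because it ends before the start of the neighbouring gene Deaf1.
Pdp1 intron: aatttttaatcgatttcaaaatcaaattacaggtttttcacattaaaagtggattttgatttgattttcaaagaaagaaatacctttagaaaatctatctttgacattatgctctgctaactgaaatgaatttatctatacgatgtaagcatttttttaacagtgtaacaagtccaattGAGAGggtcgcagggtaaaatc
cyc flank: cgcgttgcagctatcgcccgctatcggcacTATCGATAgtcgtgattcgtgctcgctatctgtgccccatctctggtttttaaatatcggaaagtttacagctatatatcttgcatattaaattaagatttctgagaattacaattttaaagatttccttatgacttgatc
cwo intron: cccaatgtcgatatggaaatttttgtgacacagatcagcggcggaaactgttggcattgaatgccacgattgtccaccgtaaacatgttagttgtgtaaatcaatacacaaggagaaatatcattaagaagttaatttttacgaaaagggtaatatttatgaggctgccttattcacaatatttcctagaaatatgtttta
vri intron: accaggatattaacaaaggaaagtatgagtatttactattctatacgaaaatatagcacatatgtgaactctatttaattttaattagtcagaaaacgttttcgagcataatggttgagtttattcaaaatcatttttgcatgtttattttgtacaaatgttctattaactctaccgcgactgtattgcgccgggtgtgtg

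In these printed windows GC content was 28.4% for Pdp1, 38.6% for the cyc flank, 34.8% for cwo and 31.3% for vri. The median was 37.8% over all optimal peaks and 44.8% over the 30000 pooled regions. The capitals in the cyc window are a pair of ATCGATA matches, 1 on each strand, that overlap. In the Pdp1 window the GAGAG match lay 81 bp from the summit, and in the other windows neither motif occurred.

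Of the activators, Clk (FBgn0023076, 3L, 7763233 to 7775603, minus strand) had 2 pooled regions, and both lay upstream of the gene in coding sequence. The stronger, with a signal of 39.9 and rank 10794 of 30000, lay 3620 bp upstream of the distal Clk TSS in a coding exon of CG32369. That region was matched at rank 8974 in replicate 1 and 13466 in replicate 3 and was not matched in replicate 2. A second overlapping region of replicate 1, nearer to the pooled summit, ranked 15573. Downstream of Clk each replicate also listed an intergenic region, absent from the pooled list, with signals of 12.9, 9.24 and 18.3 and ranks of 20141, 23392 and 9043 in replicates 1, 2 and 3. Its nearest TSS was that of the neighbouring gene Hn, 328, 286 and 158 bp from the summits. Neither of its 2 promoters (TSSs at 7775603 and 7767230) had a region within 500 bp in any list. No region of any of the 4 lists lay inside 27.2% of all protein-coding genes. Of the 1394 genes in the length class of Clk (the ninth of 10 classes, from short to long) 54 were without one (3.87%).

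The cyc gene (FBgn0023094, 3L, 19813770 to 19815938, minus strand) was counted for a peak at chr3L:19817898-19818307 with a signal of 196.8, rank 705 of 3392. In replicates 1, 2 and 3 the region there had a signal of 66.0, 61.9 and 84.0, with ranks of 712, 530 and 641. Its place was intergenic, 2165 bp upstream of the cyc TSS, and other genes start closer to it. The summit lay 71 bp from the TSS of Deaf1 and 136 bp from the nearer TSS of Fibp, and these genes are transcribed away from each other, so that the peak stands in their shared promoter interval. At the start of cyc itself the pooled list held a region of signal 30.1 (rank 17941), 32 bp from the TSS, which replicate 1 lacked and which ranked 13411 in replicate 2 and 20711 in replicate 3.

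The repressors per and tim had weak regions throughout. For per (FBgn0003068, X, 2685580 to 2692780, plus strand), the pooled list held 5 regions with signals from 22.2 to 28.1, and the strongest, in coding sequence, ranked 20288. The strongest region lay at a different site in each replicate: in per coding sequence in replicate 1 (rank 12975), inside the neighbour HLH3B in replicate 2 (rank 27616) and 281 bp from the per TSS in replicate 3 (rank 16319). A region 256 bp from the per TSS had a pooled signal of 26.8 (rank 21937), and it was matched at rank 17153 in replicate 1 and 16319 in replicate 3 but not in replicate 2. For tim (FBgn0014396, 2L, 3493986 to 3508119, minus strand), 3 pooled regions had signals from 22.2 to 31.9, with the strongest in an intron at rank 16161. That intronic region was matched in replicate 3 alone, at rank 19090. The strongest region of replicate 1 was another, in the 5′ UTR at rank 9085, and that of replicate 2 lay in an intron at rank 21018. The region at the tim promoter of 3 transcripts (TSS at 3508119) had a pooled signal of 28.6, 15 bp from the start, and matched a region of replicate 1 only. At the promoter of 6 other transcripts (TSS at 3507218) the pooled signal was 22.2 (rank 29830). Each replicate had a region within 500 bp of that start, of rank 9085, 21018 and 27477 in replicates 1, 2 and 3. No pooled region of per or tim was overlapped by regions of all 3 replicates.

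The photoreceptor gene cry (FBgn0025680, 3R, 19212154 to 19215442, plus strand) had 2 pooled regions. The stronger lay 287 bp upstream of its TSS with a signal of 44.6 and rank 8860. It was matched at rank 10488 in replicate 1 and 11831 in replicate 3, and replicate 2 had none there. This was the highest pooled signal among the 4 clock genes without an optimal peak, and it stood well below the lowest signal of the optimal list, 80.7.

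Pdp1 (FBgn0016694, 3L, 7811458 to 7867369, minus strand), the activator of Clk, is the longest of the 8 genes, with 13 transcripts from 4 promoters. Its optimal peak at chr3L:7850849-7851258 had the highest signal of the 4, 216.4 (rank 551 of 3392). In replicates 1, 2 and 3 the region had a signal of 74.8, 76.6 and 58.9, with ranks of 542, 319 and 1306. The summit lay in the first or second intron of 9 of the 13 transcripts, introns of 33153 to 49017 bp. It was 4494 bp downstream of the TSS at 7855548, used by 7 transcripts, and 16315 bp downstream of the TSS at 7867369, used by Pdp1-RF and Pdp1-RO. The other 4 transcripts start downstream of the peak, at 7833073 and 7828018.

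Pdp1 also carried a broad run of weaker regions. Of its 35 pooled regions 29 lay inside the gene and 22 had their summit in an intron, and regions of all 3 replicates overlapped 20 of them. Some neighbouring regions overlap each other, so these counts are not of separate sites. A region at chr3L:7863786-7864195, in the intron 3378 bp from the TSS at 7867369, fell just below the optimal list with a pooled signal of 79.0 (rank 3518). It ranked 2682 in replicate 1, 8998 in replicate 2 and 5471 in replicate 3. The promoter at 7867369 had a pooled region of signal 55.6 (rank 6097), overlapped by regions of rank 20381, 2318 and 8197 in replicates 1, 2 and 3. The replicate 2 region of rank 2318 had its summit on the other side of the TSS, and the one nearest the pooled summit ranked 4294. A separate region of replicate 1, in the intron 471 bp from that TSS, ranked 2882. The promoter at 7855548 had a pooled region of signal 67.4 (rank 4542), 493 bp from the start, overlapped by regions of rank 4780, 7810 and 7455. A second overlapping region of replicate 1, nearer to that pooled summit, ranked 17414. At the promoter at 7828018 the signal was 35.5 (rank 13320), and the promoter at 7833073 had no pooled region.

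The repressor gene vri (FBgn0016076, 2L, 5288944 to 5311223, plus strand) encodes a bZIP factor and has 3 promoters. Its peak at chr2L:5293171-5293580 had a signal of 115.4, rank 1866. The replicates gave signals of 33.8, 29.6 and 48.4, with ranks of 2546, 2498 and 1807. The summit lay in intron 1 of vri-RE, an intron of 18055 bp, 4432 bp downstream of the start of that transcript. For the other 4 transcripts the same position is upstream, 6271 bp before the TSS of vri-RC and 12274 bp before that of vri-RA, vri-RD and vri-RF. The promoter of vri-RC had a pooled region of signal 57.5 (rank 5785) that rested on replicate 3, where it ranked 2279, against 18832 in replicate 2 and no region in replicate 1. No list held a region within 500 bp of the vri-RE start. At the promoter shared by the other 3 transcripts each replicate listed a region, the best of which ranked 19240 (replicate 2), and the pooled list had none.

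The gene cwo (FBgn0259938, 3R, 10388258 to 10400752, plus strand), whose product is a helix-loop-helix repressor, has 1 promoter. Its peak at chr3R:10393605-10394014 had a signal of 120.5, rank 1731. The replicates gave signals of 44.4, 33.0 and 40.5, with ranks of 1515, 1996 and 2471. The summit lay in intron 1 of all 3 transcripts, 5552 bp downstream of the TSS. A pooled region 54 bp from the TSS had a signal of 66.1 (rank 4663). It ranked 13943 in replicate 1, 2501 in replicate 2 and 6295 in replicate 3, so the replicates differed widely at the cwo promoter.

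**Figure D1:**
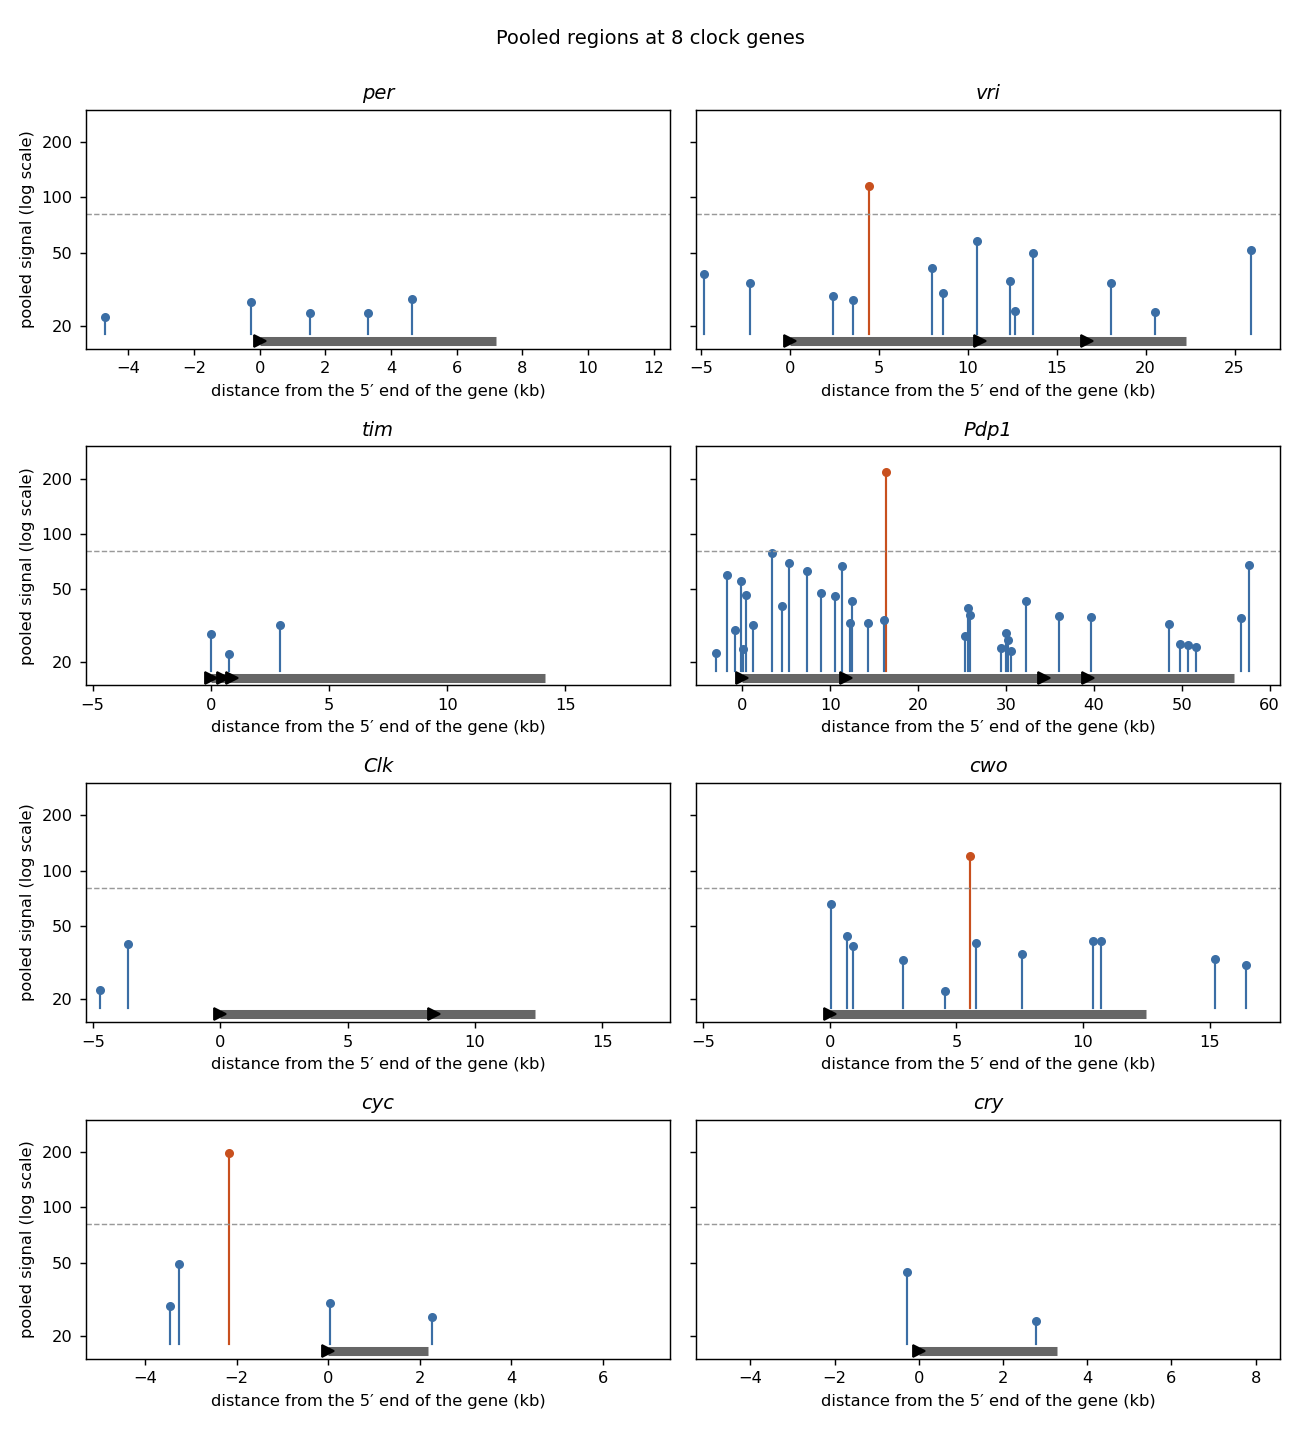
Signal of each pooled region (log scale) at the 8 clock genes against the distance in kb of its summit from the gene's 5′ end, in the gene's direction of transcription, with 5 kb flanks. The grey bar is the gene, black arrowheads are its TSSs, orange marks optimal peaks, blue the other pooled regions, and the dashed line is the lowest optimal signal, 80.7. Only Pdp1, cyc, cwo and vri reach the line, each with 1 region away from the arrowheads, and the body of Clk is empty.

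Replicate signals are not on a shared scale, so each was divided by the replicate's median over the optimal peaks (42.6, 35.6 and 51.1 in replicates 1, 2 and 3). The relative signal of the Pdp1 peak was 1.76, 2.15 and 1.15, a mean of 1.69 ± 0.504 (SD, n = 3). That of the cyc flank was 1.55, 1.74 and 1.64, with a mean of 1.64 ± 0.0964 (SD, n = 3). These 2 peaks did not differ beyond their spread, as their ranges overlap. For cwo the values were 1.04, 0.928 and 0.792, with a mean of 0.921 ± 0.125 (SD, n = 3). For vri they were 0.794, 0.833 and 0.946, with a mean of 0.858 ± 0.0790 (SD, n = 3), and the ranges of cwo and vri overlap too. The lowest replicate of Pdp1 (1.15) and of the cyc flank (1.55) lay above the highest of cwo and of vri. The coefficient of variation between replicates was 29.9% for Pdp1, 5.86% for the cyc flank, 13.6% for cwo and 9.21% for vri, against a median of 23.1% over 3365 optimal peaks.

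**Figure D2:**
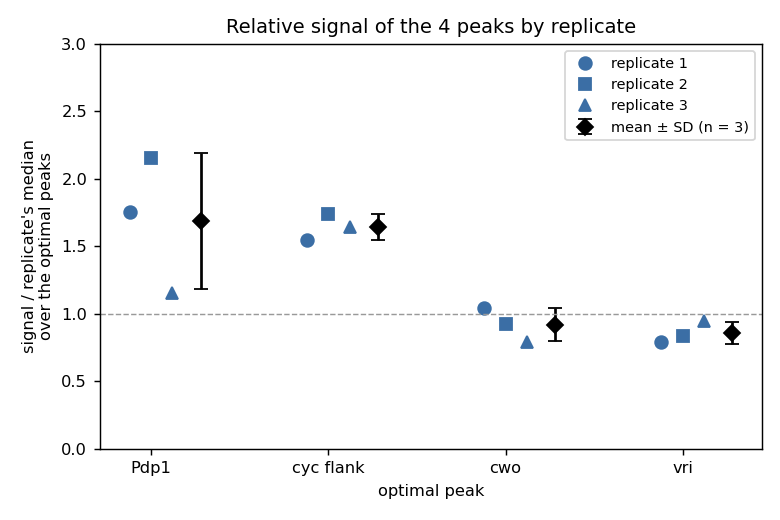
Signal of the 4 optimal peaks in each replicate, divided by that replicate's median over the optimal peaks, with the mean ± SD of 3 replicates as a black diamond and a dashed line at that median. Pdp1 (1.15 to 2.15) and the cyc flank (1.55 to 1.74) lie above the line in every replicate, while cwo (0.792 to 1.04) and vri (0.794 to 0.946) lie near or below it.

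All 4 peaks were among the 3392 regions of highest signal in each of the 3 replicates. Over all optimal peaks 1933 (57.0%) were, and such overlap is partly built into a list kept for reproducibility. Counted by gene, 4 of the 8 clock genes had a peak with this support, against 28.7% of protein-coding genes. Ordered by their strongest pooled region, the genes ran Pdp1, cyc, cwo, vri, cry, Clk, tim and per. The pooled list holds 3392 regions at or above the lowest optimal signal, as many as there are optimal peaks. Having an optimal peak is thus a cut by pooled signal, and the 4 genes with one come first in that list by construction. In each replicate they also ranked ahead of the 4 without, from 319 to 2546 against 8974 to 27616. That split is partly built in as well, since the replicates make up the pool. The strongest region of cry, Clk, tim and per was not the same site in every replicate, and no order of these 4 genes held in all 3. The precipitate came from whole embryos, so binding in few cells and weak recovery in many cannot be told apart.

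**Figure D3:**
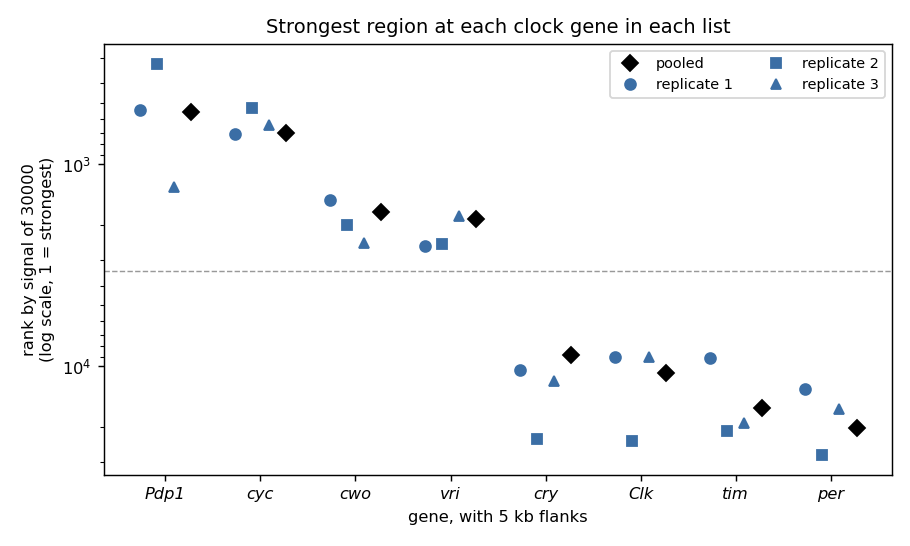
Rank by signal (log scale, 1 is the strongest of 30000) of the strongest region at each clock gene with 5 kb flanks, in the pooled list (black) and in replicates 1 to 3 (blue). The dashed line marks rank 3392, and the strongest region can be a different site in each list. Pdp1, cyc, cwo and vri are above the line in every list, and cry, Clk, tim and per are below it in every list. In the pooled list this split holds by construction, as the optimal list is a cut by pooled signal.

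Inside the gene, 3 of the 8 clock genes had an optimal peak (Pdp1, cwo and vri), against 9.92% of all protein-coding genes. Gene length moves with these shares, and its part in the counts was not tested. The clock genes have a median length of 12433 bp, against 2166 bp for all protein-coding genes. Among genes of the length class of Pdp1 and vri the share with an internal peak was 36.8%, and in that of per, tim, Clk and cwo it was 20.9%. With 5 kb flanks the share was 58% in the class of Pdp1 and vri, 53.7% in that of per, tim, Clk and cwo, 46.7% in that of cyc and 46.2% in that of cry. A peak within 500 bp of a TSS, which 0 of the 8 had, was present in 26% of the class of Pdp1 and vri, 25.8% of that of per, tim, Clk and cwo, 19.7% of that of cyc and 21.6% of that of cry. An internal peak with none within 500 bp of a TSS, the arrangement of all 3 genes, was seen in 3.27% of all protein-coding genes. In the class of Pdp1 and vri that share was 17.6%, and in the class of cwo it was 7.82%. Of all optimal peaks, 61.2% had a summit within 500 bp of some TSS, 39.6% lay in an intron, and 436 (12.9%) had no TSS within 4 kb. The peaks in Pdp1, cwo and vri belong to these 436, as their nearest annotated starts of any gene are 4494, 5552 and 4432 bp away. The 4 kb cut lies just below the smallest of these distances, so the place of all 3 in this class depends on the cut.

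The 30000 pooled regions, most of them weak, were spread unevenly over the 8 genes. The genes held 78 of them, of which Pdp1, vri and cwo had 61 and per, tim, Clk and cry had 12. Per 10 kb of gene and flanks the density was 5.33 at cwo, 5.31 at Pdp1, 4.34 at vri and 4.11 at cyc, then 2.91 at per, 1.51 at cry, 1.24 at tim and 0.894 at Clk. The median gene of the same length class had 3.60 for cwo, per, tim and Clk, 2.40 for Pdp1 and vri, 4.01 for cyc and 3.82 for cry. By raw count, Pdp1 had more pooled regions than 97.6% of its length class, and Clk more than 7.82% of its own. These 2 shares are not scaled by length, which still varies within a class, and Pdp1 has 55912 bp. The counts in replicates 1, 2 and 3 were 31, 35 and 32 for Pdp1, 18, 17 and 15 for vri, and 14, 11 and 7 for cwo. They were 3, 3 and 2 for Clk, 4, 1 and 4 for per, 5, 1 and 3 for tim, 3, 1 and 2 for cry, and 5, 5 and 7 for cyc. These counts too are not scaled by length, and Pdp1 and vri are the longest of the 8 genes. Their raw counts lay above those of every other clock gene in each replicate. Per 10 kb, however, the pooled density of vri (4.34) was below that of cwo (5.33). The low counts of per, tim, Clk and cry overlap.

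**Figure D4:**
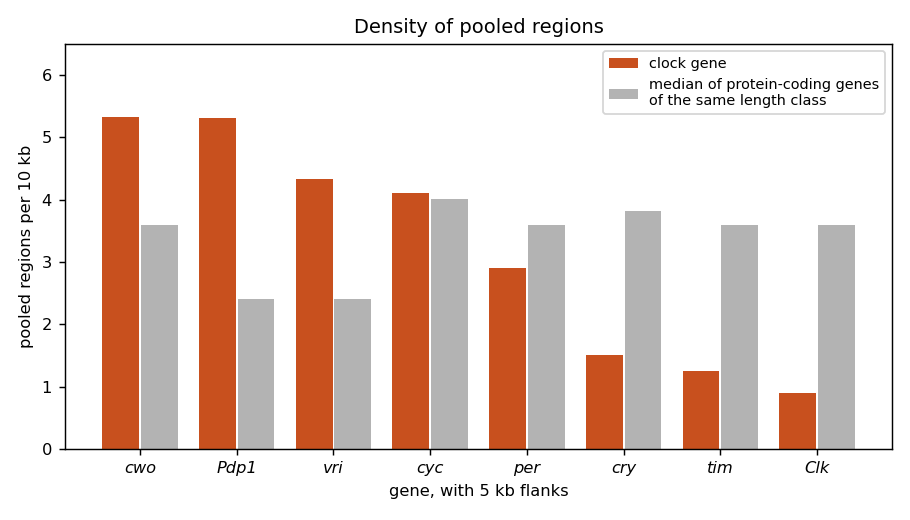
Pooled regions per 10 kb of gene and 5 kb flanks for each clock gene (orange), beside the median of protein-coding genes of its length class (grey). The bars of cwo, Pdp1 and vri stand above their class medians, that of cyc is about level with it (4.11 and 4.01), and those of per, cry, tim and Clk are below.

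As a group the 78 regions resembled the rest of the pooled list. Their median signal was 34.1, against 33.3 over all 30000, and regions of all 3 replicates overlapped 32 of them (41.0%), against 41.0% of the whole list. A −log10 q of at least 2 was reached by 12 of the 78 (15.4%), against 19.8% of all pooled regions. Pdp1 held 20 of the 32 and 7 of the 12. No pooled region of per, tim, Clk or cry was among either, so the shares combine unlike genes. By position, 39 summits lay in introns, 15 in coding sequence, 12 in 5′ UTRs, 9 between genes, 2 in 3′ UTRs and 1 in another exon. Within 500 bp of a TSS of their clock gene were 13. Exonic summits in the flanks lay in neighbours such as CG32369 and CG32365 beside Pdp1, CG14024 beside vri and CG6325 beside cwo.

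Motifs were looked for, on either strand, up to 100 bp from each of the 4 summits. The E-box CACGTG, bound by CLK and CYC and by CWO, occurred at 0 of 4, against 2.89% of all optimal peaks. TTATGTA, the core of the site that VRI and PDP1 share, occurred at 0 of 4, against 5.48%. ATCGATA occurred at 1 of 4 (the cyc flank), against 12.7%, and GAGAG at 1 of 4 (Pdp1), against 24.7%. Of the Smad-related motifs, GTCTG occurred at 0 of 4, against 20.1%, and the Mad motif GGCGCC at 0 of 4, against 4.07%. A match or its lack describes only the letters in these windows. E-boxes were present elsewhere in the loci. The 8 genes with flanks, 209851 bp, held 52 CACGTG matches, of which cwo had 15, Pdp1 14 and per 11. Pooled regions covered 14.3% of these bases and 8 of the 52 matches (15.4%), and 6 of these 8 were at Pdp1. No match lay in an optimal peak, and none of the 15 at cwo lay in any pooled region. The replicate lists did cover some of them. Matches at cwo lay in regions of replicate 1 (rank 20615) and replicate 2 (rank 27893). At vri, which had none in a pooled region, matches lay in regions of replicate 1 (rank 7903) and replicate 3 (rank 6089), among others.

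A list of 33 accessory clock genes was counted by the same rule. It was chosen with earlier results of these data known, so its shares only describe the listed genes. Of the 8 clock genes 4 had an optimal peak in the gene or within 5 kb, against 25 of the 33 accessory genes (75.8%) and 43.4% of all protein-coding genes. With the summit inside the gene the counts were 3 of 8 clock genes, against 11 of 33 accessory genes and 9.92% of all protein-coding genes. Within 500 bp of an own TSS the count was 0 of 8 clock genes, against 14 of 33 accessory genes and 18.4% of all protein-coding genes. Median gene lengths were 12433 bp for the clock genes and 11050 bp for the accessory genes, against 2166 bp for all protein-coding genes. Most of the 33 accessory genes fall in the length class of Pdp1 and vri or in that of per, tim, Clk and cwo. In these classes the share with an optimal peak in the gene or within 5 kb was 58% and 53.7%. Inside the gene it was 36.8% and 20.9%, and within 500 bp of a TSS 26% and 25.8%. The part of length in the accessory counts was not tested. Among kinases, phosphatases and their partners 8 of 9 had a peak, with signals of 387.6 at sgg (GSK3, which phosphorylates TIM), 263.8 in wdb (a phosphatase subunit) and 182.1 at dbt (the PER kinase, 277 bp from its TSS); tws, mts, nmo, CkIIbeta and Bdbt also had one and CkIIalpha had none. Of the genes of protein turnover, 4 of 5 did (slmb, jet, Usp8 and ctrip, not Cul3), and none of these peaks was at their own promoter. A peak 130 bp from the Bdbt TSS also counts for slmb. All 7 genes of transcription and chromatin had a peak, and kay, Hr51 and BRWD3 were among them. Signals were 378.9 at Eip75B (a nuclear receptor), 283.9 in kis and 269.5 at brm (both chromatin remodellers) and 237.7 beside nej (CBP). The peaks counted for Hr51 and BRWD3 lay outside those genes, nearest to the TSSs of unc-5 (831 bp) and Dis3 (52 bp). Of the genes of RNA and translation only Atx2 did, and tyf and lark did not. Among light input and output genes 5 of 9 had one, with the highest signal of all 33 genes in an intron of norpA (phospholipase C of the photoreceptors), 451.5 at rank 105. The others were gl, nocte, Pdfr and Nlf-1, while qsm, Pdf, na and to had none. The peaks counted for gl, Pdfr and Nlf-1 lay outside those genes. Their nearest TSSs were those of Nup43 (52 bp), AANATL7 (158 bp) and lncRNA:CR44828 (556 bp). A signal above that of the Pdp1 peak, 216.4, was found at 7 of the 25 accessory genes with a peak.

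Relatives of the clock proteins by family were counted in the same way. Of the 9 other genes of the bHLH-PAS family, that of CLK and CYC, 6 had an optimal peak (sima, tgo, sim, Met, gce and tai), while ss, trh and dysf had none. The share was 43.4% of all protein-coding genes and 58% of the longest class, which holds 7 of these 9, and only 4 of the 9 had a peak inside the gene. The strongest had a signal of 250.6 in an intron of sima, the hypoxia-inducible factor of the fly. The peak of 216.3 counted for gce, a juvenile hormone receptor, lay outside that gene and 164 bp from the TSS of Top1, and the strongest peak inside gce had a signal of 165.8. That counted for Met, the other such receptor, had a signal of 150.9 and lay outside the gene, nearest to Ptp10D. In the family of CRY, cry had no optimal peak, and the photolyases phr6-4 and phr had peaks of signal 184.8 and 95.0, 53 and 45 bp from their TSSs. The share with a peak in the gene or within 5 kb was 46.2% in the length class of cry, 46.7% in that of phr6-4 and 44% in that of phr.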

How the data were processed

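The deposited lists on build dm6 were used: 30000 regions called by the authors on each of 3 replicates and on the pooled alignments against a control, and the optimal list of 3392 peaks past a threshold of the irreproducible discovery rate (IDR), per the file listings. The aligner is not given in the sources used here, nor are the caller, the versions or the IDR cutoff, and depth is unknown. The deposited signal is the caller's value per region, not scaled between libraries, so it ranks regions within a list only. The deposited −log10 q has a ceiling and was not used for ranking. The deposited summit is an offset in bp from the region's start. The dm3 lists were not used here.

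Genes and transcripts came from Ensembl (BDGP6.54, release 115) and sequence from RefSeq for the same assembly, read with Python 3.11.15, pandas 2.3.3 and numpy 2.4.6, and the counting was tested on simulated data. Where transcripts disagreed on a summit's location, exons took priority over introns, and among exons the 5′ UTR came first. Length classes are 10 equal parts of the protein-coding genes. A pooled region counted as found in a replicate at an overlap of at least 1 bp. Where several regions of a replicate overlapped it, the one of highest signal was taken as the match. The symbols dbt and Nlf-1 were matched to dco and Mid1. Members, lists and the naming rule (all members, genes at or nearest to their peaks, and every accessory gene) were chosen with earlier results of these data known. With 1 group no test was made, and spreads over the 3 biological replicates are descriptions. Alternatives were other distances, windows, overlaps, scalings and thresholds, and leaving out each replicate.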

Additional observations from a re-analysis of the deposited data

How the results depend on the processing

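With 1 group, replicate numbers pair nothing: No paired analysis was possible because the series has no second group to compare. The 4 clock genes with an optimal peak were 3 when the summit had to lie inside the gene or within 1 kb, which drops cyc, and 4 within 10 kb or by overlap of the region. With only the 1696 optimal peaks of higher signal, 2 genes (Pdp1 and cyc) and 2 peaks were left, and with that number of top regions per replicate 2 of the 4 peaks were shared by all 3 replicates. When each replicate was left out in turn, the top regions shared by the other replicates were counted in place of the optimal peaks. The genes then numbered 4 to 4, the regions at them 4 to 5 and the genes with a promoter region 0 to 1. All 4 peaks were among the top regions of every replicate, so the count of 4 genes had little room to fall. The 1 came without replicate 3, from the region 471 bp inside Pdp1 that ranked 2882 in replicate 1. The promoter count was 0 with windows of 250 and 1000 bp. Relative signals kept their order Pdp1, cyc, cwo and vri under another scaling and another matching of regions. Left-out replicates gave 1.45 to 1.95 for Pdp1, 1.60 to 1.69 for the cyc flank, 0.860 to 0.985 for cwo and 0.814 to 0.890 for vri. Thus the cyc flank exceeded Pdp1 without replicate 1 and without replicate 2, and vri exceeded cwo without replicate 1. Motif counts depended on the window: GAGAG was at 0 of 4 peaks within 50 bp (11.7% of all optimal peaks) and at 3 within 250 bp (52.3%), and GTCTG was at 2 within 250 bp (44.8%). The accessory genes with a peak were 11 by summit inside only, 19 within 1 kb and 26 within 10 kb, against 25. Depth is unknown, so its effect on the regions could not be measured.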
